A study of Danio rerio with 15 samples.

Results

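The transcripts of 6 germ plasm genes, buc, tdrd6a, tdrd7a, ddx4, dazl and nanos3, were followed through early zebrafish development and in embryos without Dicer. The members were every probe set whose only gene symbol on the array platform was 1 of these 6 names. Each gene had exactly 1 such probe set, and together they made up 6 of the 8793 genes that the array measured with a probe set of a single symbol. The rule itself uses gene names and no measured values, but the names were chosen with earlier results of these data known.

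Germ plasm is a maternally supplied mixture of RNA and protein that gathers at the cleavage furrows of the early embryo and is inherited by the few cells that become primordial germ cells. Germ plasm transcripts are laid down in the egg, and those that lie outside the germ plasm are removed from somatic cells. miR-430 is a microRNA family transcribed when the zygotic genome is switched on, and it promotes the shortening of the poly(A) tail and the decay of many maternal transcripts. The nanos3 and tdrd7a transcripts are known from reporter studies in zebrafish as somatic targets of miR-430, and the RNA-binding proteins Dnd1 and Dazl protect some of these transcripts in germ cells.

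Transcript levels were measured in whole embryos on 15 Affymetrix Zebrafish arrays, to learn how miR-430 affects maternal mRNAs. Wild-type embryos of the TLAB strain were taken at the 16-cell stage (n = 2) and at 50% epiboly (n = 1), when the cell sheet covers part of the yolk. Uninjected wild type (n = 3) and uninjected MZdicer (n = 3) were taken at 9 hours after fertilisation, and the MZdicer genotype removes the microRNA-processing enzyme Dicer from both the maternal supply and the embryo itself. Further wild-type (n = 3) and MZdicer (n = 3) embryos had been injected with miR-430 at the 1-cell stage. The labels state neither the strain of the 9-hour and injected embryos nor the age of the injected ones. Every array held RNA pooled from 20 embryos. A mock-injected group is not part of the design, so the injection and the microRNA cannot be told apart. The labels do not say whether replicates came from separate clutches, and the p-values therefore reflect the spread among the arrays at hand, which could be only technical.

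A level is a quantile-normalised intensity, which has no absolute unit and is compared only for the same probe set between arrays. A log2 change is a difference of log2(intensity + 16), which understates the change of dim transcripts. A change was called at a Benjamini-Hochberg adjusted p under 0.05 from limma over all 15502 probe sets. Reverse transcription was primed on the poly(A) tail, so a shorter tail and less RNA can both lower the signal. In whole embryos, fewer cells that hold a transcript and less of it in each cell cannot be told apart.

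Median deposited intensities ranged from 154 to 195 between arrays, and Pearson correlations within a group from 0.983 to 0.996. The dicer1 transcript had a mean level of 466 in wild type at 9 hours and 306 in MZdicer, a log2 change of -0.58 (adjusted p = 3.50e-05, limma). The probes are not placed relative to the mutation here. The maternal cyclin transcript ccna1 had a mean level of 10262 at the 16-cell stage and 111 in wild type at 9 hours, and the mesoderm transcript msgn1 had 23 and 4528, in the order that the stage labels give. The arrays fell into 5 fluidics batches, meaning arrays that share a hybridisation date in the file headers. The 16-cell and 50% epiboly arrays formed 1 batch, and all 6 MZdicer arrays shared another with 1 injected wild-type array. Injected and uninjected MZdicer arrays ran on separate fluidics stations, so station and injection cannot be told apart in MZdicer for any gene. The uninjected wild-type arrays lay in batches of their own, so fluidics batch and group cannot be told apart in any comparison with them. The middle-to-5′ intensity ratio of the array's actin control was 9.92 ± 1.11 (SD, n = 3) in wild type at 9 hours, 9.55 ± 0.754 (SD, n = 3) in injected wild type, 18.2 ± 2.58 (SD, n = 3) in MZdicer and 12.4 ± 0.329 (SD, n = 3) in injected MZdicer. The same ratio was 4.16 at the 16-cell stage and 15.1 at 50% epiboly, and the 3′-to-5′ ratio of the GAPDH control was 0.371 at the 16-cell stage, 0.225 at 50% epiboly and 0.162 in wild type at 9 hours. That GAPDH ratio was 0.204 in injected wild type, 0.196 in MZdicer and 0.149 in injected MZdicer. The part of these differences in the results was not tested.

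All 6 transcripts were high at the 16-cell stage and lower in wild type at 9 hours. They were called higher at the 16-cell stage in 6 of 6 cases, where 75.6% of all probe sets passed, with 40% higher and 35.6% lower. The log2 differences ran from 1.71 for ddx4 to 6.60 for buc, with a median of 3.85 over the 6 genes against 0.08 over all probe sets. Against 50% epiboly, again 6 of 6 were higher at the 16-cell stage, with 65.4% of all probe sets called, 34.8% higher and 30.6% lower, and the median difference was 3.04 against 0.11. The 50% epiboly group held 1 array, whose spread was taken from the other groups.

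Most of the fall had taken place by 50% epiboly for 5 of the genes, whereas ddx4 fell mostly afterwards. Of the mean 16-cell intensity, the 50% epiboly array retained 1.35% of buc, 2.02% of dazl, 10.4% of tdrd7a, 12.3% of tdrd6a, 16.4% of nanos3 and 69.4% of ddx4. Wild type at 9 hours retained 0.846% of buc, 1.52% of dazl, 5.74% of tdrd6a, 6.85% of nanos3, 9.86% of tdrd7a and 29.9% of ddx4. These are shares of intensity with no background subtracted here, and a level near background inflates its share. Without a detection call, the shares therefore do not rank the genes by the RNA left. From 50% epiboly to 9 hours, 4 of the 6 were called higher at 50% epiboly and none lower, where 25% of all probe sets were called, 12.6% higher and 12.4% lower. The 4 were buc, nanos3, ddx4 and tdrd6a. For dazl the difference was 0.34 (adjusted p = 0.162, limma) and for tdrd7a 0.071 (adjusted p = 0.780, limma), and neither passed the threshold.

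**Figure D1:**
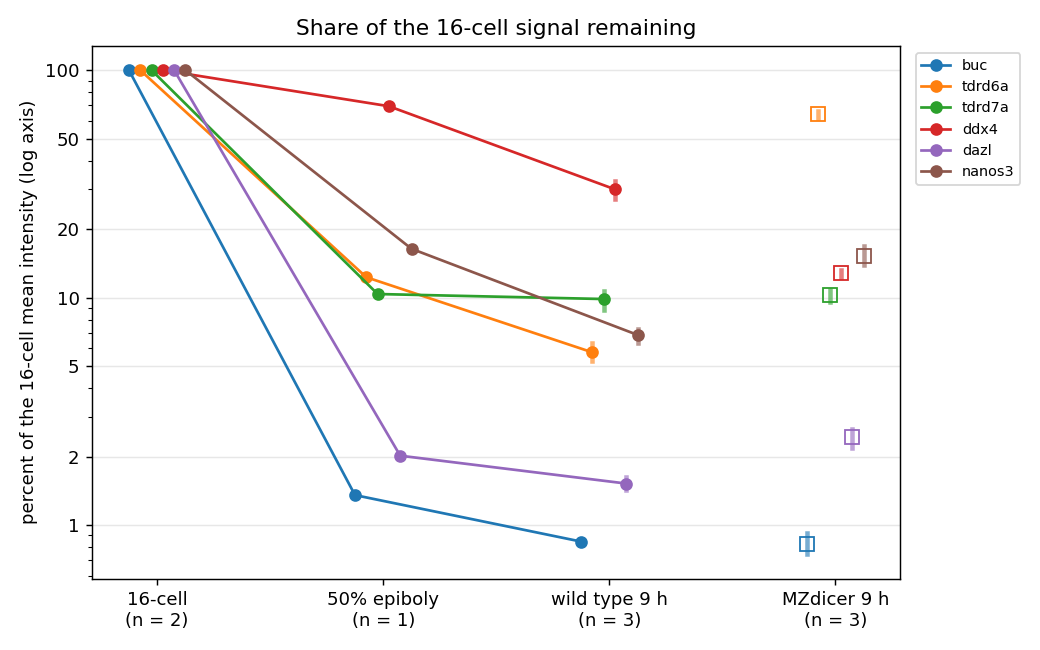
The vertical log axis gives the level as a percent of the mean wild-type 16-cell intensity, by stage and genotype on the horizontal axis. Points are group means, lines join the wild-type stages, and open squares are MZdicer at 9 hours. Bars span the lowest to the highest array and are drawn only for wild type and MZdicer at 9 hours. The tdrd6a square, at 64.1%, stands far above its wild-type point at 5.74%.

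MZdicer embryos at 9 hours also had less of all 6 transcripts than wild-type 16-cell embryos. The series holds no early MZdicer array, and the 16-cell arrays lay in another fluidics batch. Stage, genotype and batch therefore cannot be told apart here. In that comparison 78.1% of all probe sets passed, 33.7% upwards and 44.4% downwards, and 6 of 6 members were lower, with a median log2 change of -3.02 against -0.18 over all probe sets. As a share of the wild-type 16-cell mean, the MZdicer mean was 0.826% for buc, 2.43% for dazl, 10.3% for tdrd7a, 12.8% for ddx4, 15.2% for nanos3 and 64.1% for tdrd6a. The limit given for the wild-type shares holds for these too. The change of tdrd6a was -0.63 (SE 0.13, adjusted p = 4.80e-04, limma). It was the smallest of the 6, and median centring moved it to -1.03.

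**Figure D2:**
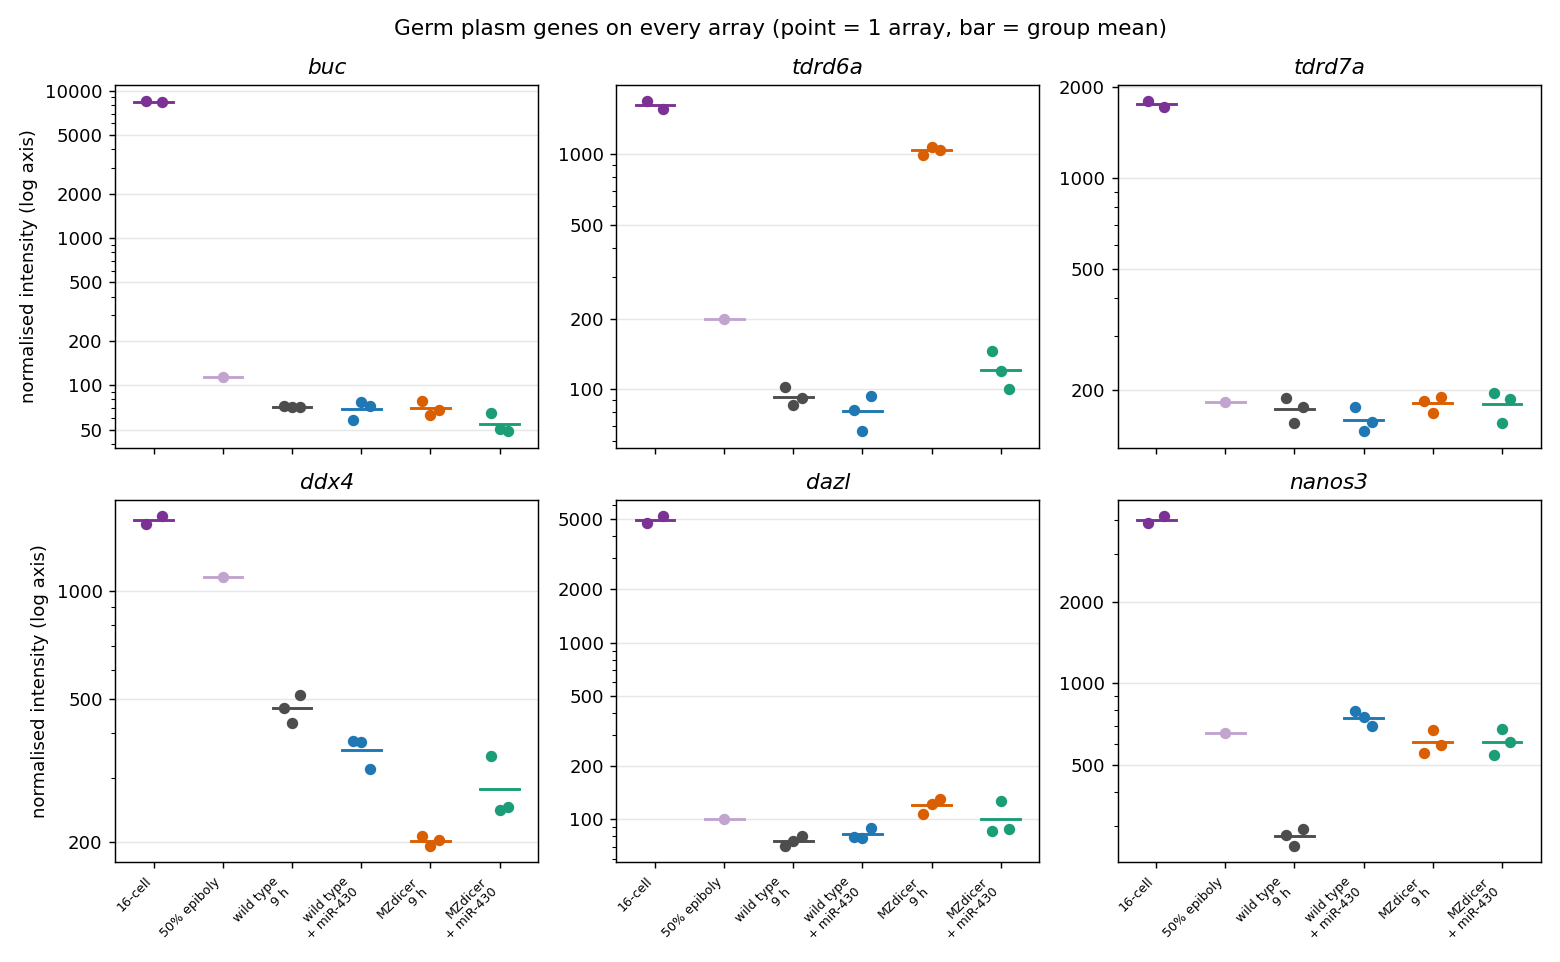
Each panel shows 1 gene, with normalised intensity on a log axis and the 6 groups on the horizontal axis. Points are arrays and bars are group means. Of the groups past the 16-cell stage, tdrd6a is high in uninjected MZdicer, nanos3 is low in uninjected wild type, and the 9-hour and injected groups of tdrd7a overlap.

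The organiser of germ plasm, buc, was low in every group past the 16-cell stage, in both genotypes. Bucky ball, its protein, is needed in zebrafish to assemble the Balbiani body of the oocyte and the germ plasm of the embryo. The 16-cell arrays had buc levels of 8461 and 8405 and the 50% epiboly array had 114. In wild type at 9 hours the levels were 72.0, 70.7 and 71.3, and MZdicer had 78.1, 62.7 and 68.3. Injected wild type had 57.9, 77.0 and 72.4, and injected MZdicer had 65.1, 50.5 and 48.8. The 16-cell arrays were far above every other array, the 50% epiboly array came next, and the uninjected wild type, MZdicer and injected wild type overlapped. All 3 injected MZdicer arrays lay below the 3 uninjected wild-type ones.

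Between the 16-cell stage and wild type at 9 hours the buc difference was 6.60 (SE 0.12, adjusted p = 1.06e-16, limma), and it ranked 18 from the highest of all probe sets. From 50% epiboly to 9 hours it fell further, by a log2 difference of 0.58 (adjusted p = 0.0129, limma). MZdicer and wild type differed by -0.032 with a 95% interval from -0.29 to 0.23 (adjusted p = 0.845, limma). Injection changed buc by -0.28 in MZdicer (adjusted p = 0.120, limma) and by -0.045 in wild type (adjusted p = 0.860, limma), and neither passed the threshold. The MZdicer value passed it without injected MZdicer replicate 1 (adjusted p = 0.0395, limma). Injected MZdicer differed from uninjected wild type by -0.31 (adjusted p = 0.0695, limma), which passed with median centring (adjusted p = 0.0247, limma) and without injected MZdicer replicate 1 (adjusted p = 0.0219, limma).

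The Tudor-domain gene tdrd6a had a mean level of 1038 in MZdicer and 93.1 in wild type, and it fell to 121 in injected MZdicer. Tudor-domain proteins bind methylated arginines and build germ granules, and in zebrafish Tdrd6a acts with Bucky ball in gathering germ plasm. The 16-cell arrays had tdrd6a levels of 1678 and 1562 and the 50% epiboly array had 199. The 9-hour wild-type arrays had 102, 85.6 and 91.5, whereas MZdicer had 997, 1074 and 1043. Injected wild type had 82.0, 66.4 and 94.1, and injected MZdicer had 145, 119 and 100.1. Every uninjected MZdicer array was above the 50% epiboly array and below both 16-cell arrays, and it overlapped with no other group. Injected MZdicer overlapped with uninjected wild type, and the wild-type groups overlapped with each other.

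MZdicer exceeded wild type in tdrd6a by 3.27 (SE 0.13, adjusted p = 1.97e-09, limma), and this difference ranked 8 from the highest of all 15502 probe sets. Injection of miR-430 lowered it in MZdicer by a log2 change of -2.95 (SE 0.13, adjusted p = 1.32e-08, limma), which ranked 5 from the lowest. This contrast lies within 1 fluidics batch, with the uninjected and injected arrays on separate fluidics stations. In wild type the change with injection was -0.18 with a 95% interval from -0.46 to 0.10 (adjusted p = 0.411, limma). The response in MZdicer minus that in wild type was -2.77 (SE 0.18, adjusted p = 9.83e-07, limma). Injected MZdicer differed from uninjected wild type by 0.32 (adjusted p = 0.0743, limma). That difference passed the threshold on the intensities as deposited (adjusted p = 0.0408, limma) and without injected MZdicer replicate 3 (adjusted p = 0.0274, limma).

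The second Tudor-domain gene, tdrd7a, fell early and did not differ measurably between genotypes or with injection. Its protein is a component of germ granules. The 16-cell arrays had tdrd7a levels of 1792 and 1711 and the 50% epiboly array had 182. Uninjected wild type had 188, 155 and 175, and MZdicer had 184, 168 and 189. Injected wild type had 175, 146 and 156, and injected MZdicer had 194, 156 and 187. Every group past the 16-cell stage overlapped with uninjected wild type, and the 50% epiboly array lay inside its range.

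The tdrd7a difference between the 16-cell stage and wild type at 9 hours was 3.23 (SE 0.11, adjusted p = 1.79e-13, limma). MZdicer differed from wild type by 0.058, with a 95% interval from -0.17 to 0.29 (adjusted p = 0.671, limma). Injection changed it by -0.013 in MZdicer, with an interval from -0.24 to 0.22, and by -0.11 in wild type, with an interval from -0.34 to 0.12. These intervals exclude a rise of the size seen for tdrd6a in MZdicer. A fall of that size cannot be judged, because no detection call shows how far these levels lie above background.

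The helicase gene ddx4 was the slowest to fall and the only member that was lower in MZdicer than in wild type. Ddx4, or Vasa, is a DEAD-box RNA helicase and a standard marker of germ cells. Its probe set carries the name ending that Affymetrix gives to probe sets shared by several transcripts of a gene. The 16-cell arrays had ddx4 levels of 1532 and 1610 and the 50% epiboly array had 1091. In wild type at 9 hours the levels were 471, 426 and 513, and MZdicer had 207, 194 and 202. Injected wild type had 381, 379 and 318, and injected MZdicer had 346, 245 and 249. The order was thus 16-cell stage, 50% epiboly, uninjected wild type, injected wild type, injected MZdicer and uninjected MZdicer, and only the injected wild type and injected MZdicer overlapped.

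From the 16-cell stage to 50% epiboly ddx4 differed by 0.52 (adjusted p = 0.0139, limma). Without 16-cell replicate 2 it was 0.48 and no longer passed (adjusted p = 0.0605, limma). From 50% epiboly to 9 hours it fell by a log2 difference of 1.19 (adjusted p = 6.60e-05, limma). MZdicer was lower than wild type by -1.16 (SE 0.12, adjusted p = 5.98e-06, limma), and injected MZdicer was lower by -0.73 (SE 0.12, adjusted p = 6.51e-04, limma).

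The response of ddx4 to injection differed between the genotypes. In MZdicer it rose by 0.43 (SE 0.12, adjusted p = 0.0201, limma), and in wild type the change was -0.37 (SE 0.12, adjusted p = 0.0609, limma), which did not pass. The difference between the responses was 0.80 (SE 0.17, adjusted p = 0.00463, limma). The MZdicer rise did not pass on the intensities as deposited (0.36, adjusted p = 0.0707, limma), without injected MZdicer replicate 1 (0.28, adjusted p = 0.0541, limma), or without MZdicer replicate 2 or 3 (adjusted p = 0.0659 and 0.0552, limma). With only the 6 MZdicer arrays fitted, adjusted p was 0.0599 by limma. The wild-type change of -0.37 passed in 3 of 23 alternatives, which were the fit without injected MZdicer replicate 1 (adjusted p = 0.00950, limma), the fit of only the arrays compared (adjusted p = 0.0380, limma) and the one without the dimmest 40% of probe sets (adjusted p = 0.0432, limma).

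The RNA-binding gene dazl was almost lost by 50% epiboly and was slightly higher in MZdicer. Dazl promotes the translation of germ cell transcripts and, in zebrafish, counters the effect of miR-430 on some of them. The 16-cell arrays had dazl levels of 4719 and 5174 and the 50% epiboly array had 99.8. The 9-hour wild-type arrays had 70.7, 75.1 and 80.1, and MZdicer had 108, 122 and 131. Injected wild type had 79.3, 78.4 and 89.9, and injected MZdicer had 86.2, 126 and 88.3. MZdicer did not overlap with uninjected wild type, while injected MZdicer overlapped with both MZdicer and injected wild type, and the 2 wild-type groups overlapped.

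MZdicer exceeded wild type in dazl by 0.58 (SE 0.13, adjusted p = 0.00253, limma). Injection changed dazl by -0.24 in MZdicer (adjusted p = 0.204, limma), and by -0.40 without injected MZdicer replicate 2 (adjusted p = 0.0180, limma). Injection changed it by 0.11 in wild type (adjusted p = 0.646, limma). Injected MZdicer differed from uninjected wild type by 0.33 (adjusted p = 0.0664, limma), and this passed on the intensities as deposited (adjusted p = 0.0394, limma) and without injected MZdicer replicate 1 (adjusted p = 0.0339, limma). The difference between the responses was -0.35 (adjusted p = 0.198, limma), and -0.51 without injected MZdicer replicate 2 (adjusted p = 0.0244, limma).

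The translational repressor nanos3 was lowest in uninjected wild type and higher in MZdicer, injected or not, and in injected wild type. Nanos proteins bind RNA together with Pumilio, and Nanos3 is needed in zebrafish for the migration and survival of primordial germ cells. The 16-cell arrays had nanos3 levels of 3885 and 4120 and the 50% epiboly array had 656. Uninjected wild type had 278, 252 and 292, and MZdicer had 555, 673 and 593. Injected wild type had 789, 750 and 697, and injected MZdicer had 546, 677 and 610. No array of the other groups reached down to uninjected wild type. The MZdicer groups overlapped with each other and held the 50% epiboly array within their range, and injected wild type lay above both.

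MZdicer exceeded wild type in nanos3 by 1.10 (SE 0.09, adjusted p = 1.02e-06, limma), and injection in MZdicer changed it by 0.0078, with a 95% interval from -0.20 to 0.21 (adjusted p = 0.970, limma). Injected MZdicer remained above uninjected wild type by 1.11 (adjusted p = 3.79e-06, limma). In wild type, injection raised nanos3 by 1.39 (SE 0.09, adjusted p = 4.17e-06, limma), which ranked 18 from the highest of all probe sets. The response in MZdicer minus that in wild type was -1.38 (SE 0.13, adjusted p = 1.68e-05, limma).

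The injected wild-type array that shared the MZdicer fluidics batch had a nanos3 level of 697, beside 789 and 750 in the batch of its fellow replicates. With scan day as a block the nanos3 rise in injected wild type was 1.40 (adjusted p = 3.43e-05, limma), and with fluidics batch as a random block it was 1.39 (adjusted p = 8.19e-06, limma). Neither fit can separate fluidics batch from injection here, because uninjected wild type shares no batch with another group. Of 12 markers of other parts of the embryo, 2 were higher and 2 lower in injected than in uninjected wild type, where 14% of all probe sets were called. The higher ones included the yolk syncytial layer gene apoa2, with mean levels of 1481 and 908, and the lower ones the endoderm gene sox32, with 718 and 1105. The summed level of the 12 markers ran from 46563 to 47725 in injected wild type and from 46685 to 48311 in uninjected wild type, and none of them was at 0 in either group. The 3 keratin probe sets supply most of that sum, so it says little of the other markers. Their part in the nanos3 result was not tested. The summed level of the 7 measured primordial germ cell markers, which include nanos3 itself, was 2040 to 2230 and 1772 to 1930 in these groups. The mean of nanos3 in that sum was 745 in injected and 274 in uninjected wild type. Of the others, dazl had a higher mean in injected wild type, at 82.5 and 75.3. Means were lower there for ddx4 (359 and 470), dnd1 (700 and 720) and tdrd7a (159 and 173). The same held for piwil1 (40.0 and 68.2) and piwil2 (48.1 and 63.6). The log2 change of dnd1 was -0.041 with the probe set in the sum (adjusted p = 0.840, limma). Its other probe set gave -0.41 (adjusted p = 0.0117, limma).

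**Figure D3:**
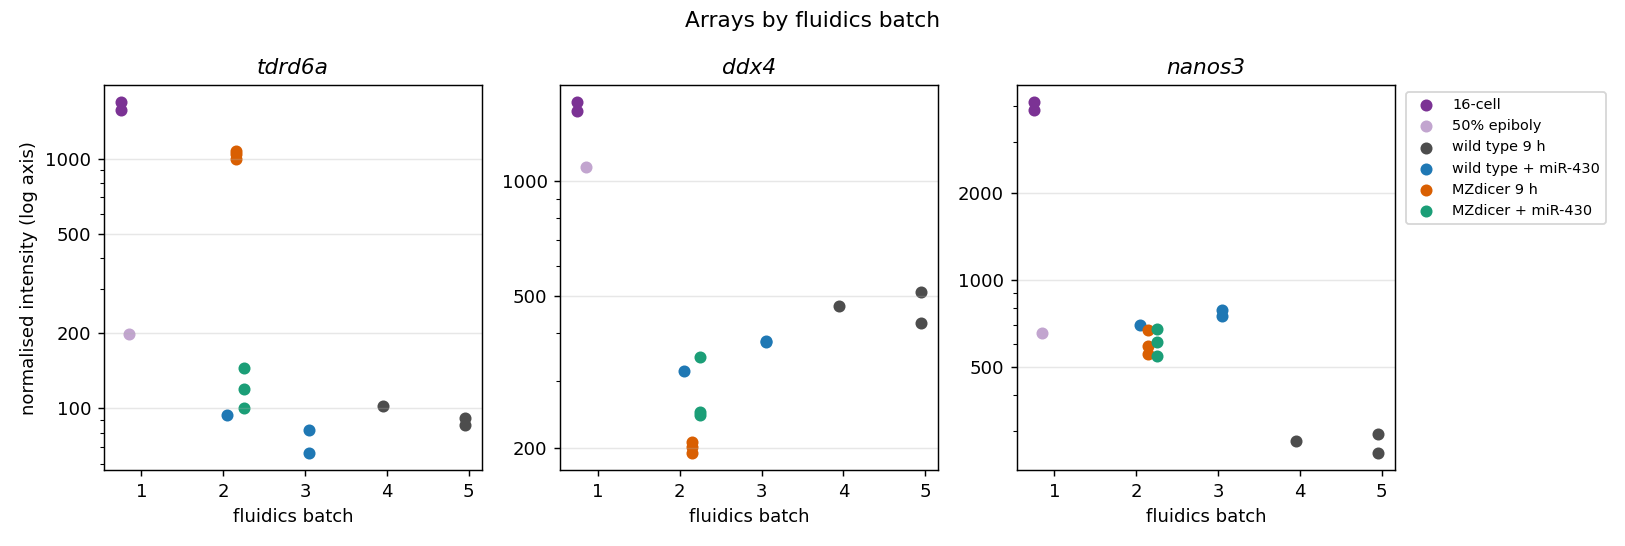
Normalised intensity on a log axis is plotted against fluidics batch, with 1 point for each array, coloured by group. The uninjected wild-type arrays lie alone in batches 4 and 5, and in batch 2 the 3 uninjected MZdicer arrays reach 997 to 1074 for tdrd6a while the injected ones reach 100.1 to 145.

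Across the genotype and injection comparisons the 6 genes did not move as a group. Between MZdicer and wild type 3 were higher and 1 lower, where 47.3% of all probe sets were called, 22.3% higher and 25% lower. The median change of the 6 was 0.32 against -0.07 over all probe sets. With injection in MZdicer 1 was higher and 1 lower, where 24.6% were called, 12% higher and 12.6% lower, and the medians were -0.13 and 0.04. With injection in wild type 1 was higher and none lower, where 14% were called, 7.3% higher and 6.74% lower, and the medians were -0.08 and -0.01. The shares of so few genes were not tested against these backgrounds. Markers of other parts of the embryo also differed between the genotypes, with 1 of 12 higher and 4 lower in MZdicer than in wild type and 2 higher and 5 lower in injected MZdicer. The higher one in MZdicer was apoa2, with mean levels of 2136 and 908 and a log2 change of 1.22 (adjusted p = 3.40e-07, limma). The lower ones were the endoderm genes sox32 at -1.08 and sox17 at -0.64, the periderm gene krt5 at -0.35 and the mesoderm gene tbxta at -0.27. The summed level of the 12 was 45361 to 46630 in MZdicer, with none at 0, and their part in the results of the 6 genes was not tested.

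Injected MZdicer differed from uninjected wild type in 1 gene upwards and 1 downwards, where 31.4% of all probe sets were called, 16.4% higher and 15% lower, with medians of 0.18 and -0.03. For the difference between the responses 1 gene was positive and 2 were negative, where 22.6% of all probe sets were called, 10.7% positive and 12% negative, with medians of -0.29 and 0.04. These comparisons share their uninjected wild-type or MZdicer arrays. Scaling moved the balance of calls over all probe sets. Of the probe sets called between MZdicer and wild type 47.1% were higher, and 65.0% were on the intensities as deposited. The split moved from 48.7% to 38.6% for injection in MZdicer and from 52.3% to 68.9% for injected MZdicer against wild type. It moved from 47.2% to 35.1% for the difference between responses, from 43.1% to 55.4% for MZdicer against the 16-cell stage and from 50.3% to 61.6% for 50% epiboly against 9 hours. With median centring the split for injection in wild type moved from 52.0% to 40.9%. No called change of a member turned its direction under any scaling tried.

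**Figure D4:**
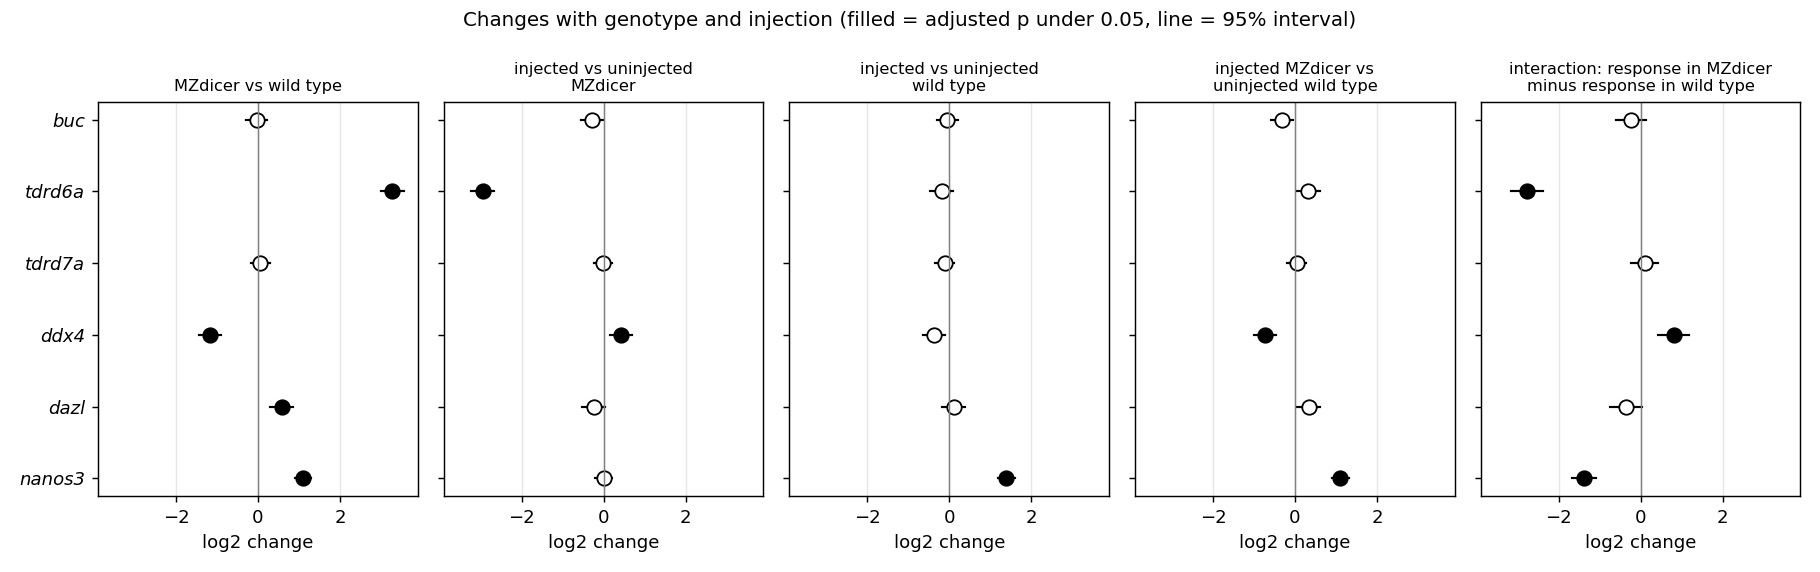
Each panel is 1 comparison, with the log2 change on the horizontal axis and the 6 genes on the vertical axis. Filled points passed an adjusted p under 0.05 and lines are 95% intervals. tdrd6a is at 3.27 for MZdicer against wild type and at -2.95 for injection in MZdicer, while nanos3 is at 1.39 for injection in wild type and at 0.01 in MZdicer.

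A further list of 32 germ plasm, piRNA pathway and maternal RNA-binding genes had 17 measured members. At the 16-cell stage 13 were higher than in wild type at 9 hours, 1 was lower and 3 were not called, with a median difference of 2.82, beside 75.6% of all probe sets called and a median of 0.08. celf1, an RNA-binding protein gene among those not called at 0.057, was higher by 1.55 with its second probe set. The oocyte linker histone h1m was higher by 6.55, the oocyte translation regulator zar1l by 5.46 and the germ granule gene asz1 by 5.22. The lower one was ybx1, a cold-shock RNA-binding protein gene, at -1.84. Against 50% epiboly 11 were higher and 1 lower, with a median of 2.36, beside 65.4% of all probe sets called and a median of 0.11. The mitochondrial piRNA pathway gene pld6 differed by 3.43 there.

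Some of these genes went on falling after 50% epiboly. Between 50% epiboly and 9 hours 8 were higher at 50% epiboly and 1 was lower, with a median of 0.35, beside 25% of all probe sets called and a median of -0.02. The log2 differences were 2.22 for h1m, 1.89 for the piRNA-binding gene piwil1, 1.71 for the germ plasm adaptor gene grip2a and 1.08 for tdrd15. The fall before 50% epiboly was larger for h1m and grip2a, at 4.33 and 2.28, and smaller for piwil1, at 0.71. The probe sets of tdrd15 disagreed, as the second gave 0.028 after 50% epiboly (adjusted p = 0.952, limma) and 1.08 before it (adjusted p = 8.37e-04, limma). In MZdicer against the 16-cell stage 13 were lower and 2 higher, with a median of -3.21, beside 78.1% of all probe sets called and a median of -0.18. The 2 higher ones were ybx1 at 1.89 and celf1 at 0.22 (adjusted p = 0.0228, limma). The second probe set of celf1 went the other way, at -1.44 (adjusted p = 2.40e-08, limma).

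Between MZdicer and wild type 3 of the 17 were higher and 2 lower, with a median of 0.00, beside 47.3% of all probe sets called and a median of -0.07. grip2a was higher by 0.78 (adjusted p = 7.27e-04, limma) and piwil1 was lower by -0.65 (adjusted p = 0.00485, limma). For piwil1 a second probe set gave -0.21 (adjusted p = 0.387, limma). dnd1, whose protein shields germ cell transcripts from miR-430, gave 0.00 with its brighter probe set and 0.49 with the other (adjusted p = 8.59e-04, limma), so its probe sets disagreed.

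With injection in MZdicer 2 of the 17 were higher and 1 lower, with a median of -0.01, beside 24.6% of all probe sets called. The piRNA-binding gene piwil2 was higher by 0.59 (adjusted p = 0.00322, limma), and cpeb1b, a regulator of poly(A) tails, was lower by -0.76 (adjusted p = 0.00752, limma). Their mean levels in injected and uninjected MZdicer were also dim, at 87.6 and 52.7 for piwil2 and 66.6 and 121 for cpeb1b. With injection in wild type 2 were higher and 3 lower, with a median of -0.07, beside 14% of all probe sets called. There grip2a rose by 1.27 (adjusted p = 1.21e-04, limma), from a mean level of 32 to 99.8, and zar1l fell by a log2 change of -0.85 (adjusted p = 0.00261, limma). For injected MZdicer against uninjected wild type 3 were higher and 1 lower, with a median of -0.03, beside 31.4% of all probe sets called. The probe sets of dnd1 disagreed there, at -0.0063 for the brighter and 0.55 for the other (adjusted p = 7.20e-04, limma). The difference between the responses was called for 7 of the 17, 4 positive and 3 negative, beside 22.6% of all probe sets, with piwil2 at 0.91 and grip2a at -1.05.

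**Figure D5:**
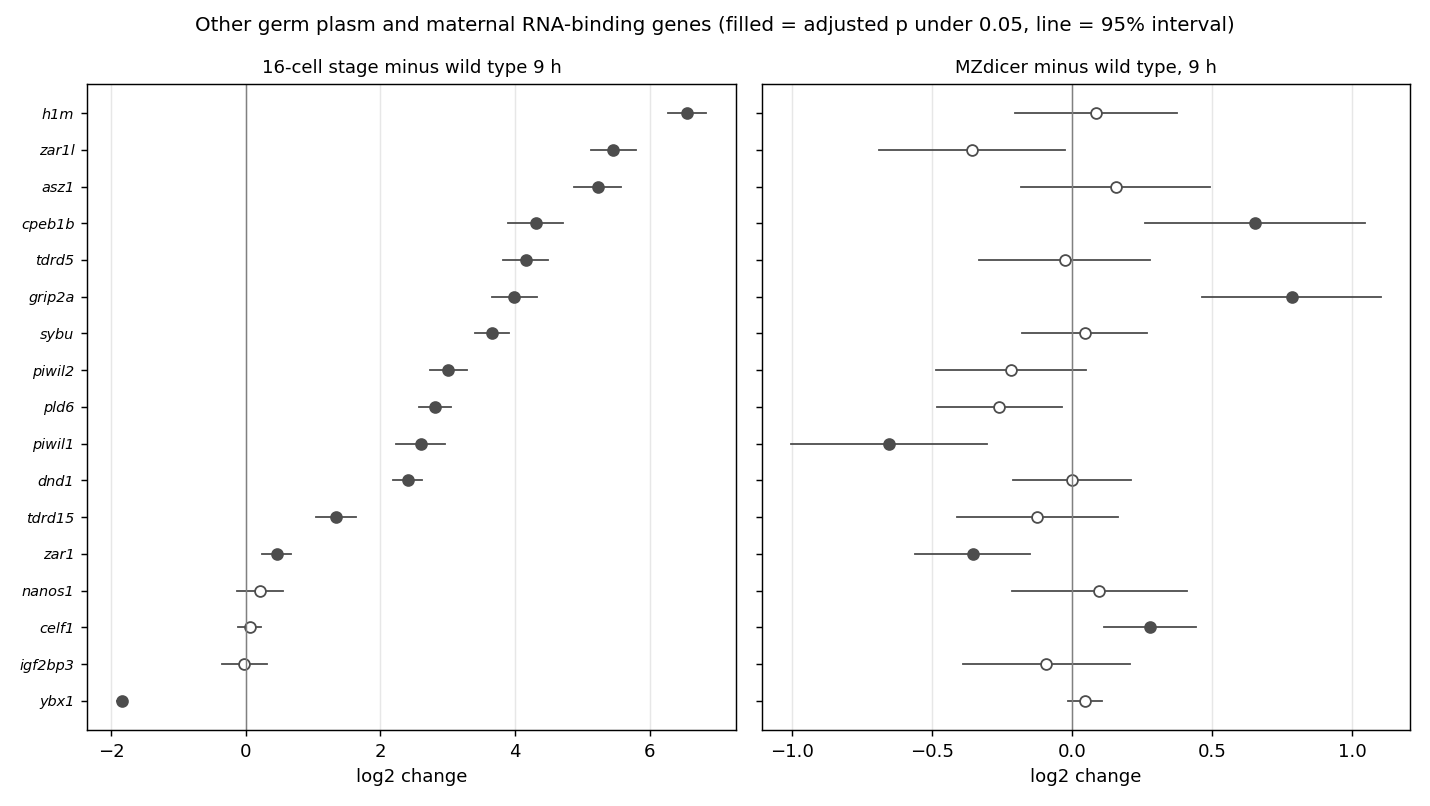
The 17 measured genes of the further list are on the vertical axis, with the log2 change on the horizontal axis for the 16-cell stage minus wild type at 9 hours on the left and for MZdicer minus wild type on the right. Filled points passed an adjusted p under 0.05 and lines are 95% intervals. On the left 13 genes are filled above 0 and ybx1 is filled below it, and on the right 5 are filled.

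The named genes with the most similar profiles were found by Pearson correlation on the log2 scale over the 15 arrays, among 5683 probe sets. Arrays of both genotypes, injected or not, entered this choice, so the MZdicer changes of the neighbours are not independent of it. For every member the largest difference between wild-type stages exceeded those with genotype and injection, so stage enters all the coefficients. For buc, dazl and tdrd7a the genotype and injection differences were small beside it, and the coefficients describe mainly the stages. For buc the nearest genes were lsm14b, fbxw11b and cnot8, each at 0.996. For tdrd7a they were stil at 0.996, scyl3 at 0.995 and fbxw11b at 0.995, and for dazl mylipa at 0.995, trappc13 at 0.995 and mterf4 at 0.994. For ddx4 they were pou5f3 at 0.989, dhrs13a.2 at 0.986 and cdc6 at 0.985. These had log2 changes of -0.45, -0.62 and -0.997 between MZdicer and wild type.

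For tdrd6a the nearest genes were laptm4a at 0.988, me3 at 0.986 and ube2g2 at 0.986, with MZdicer changes of 1.98, 2.46 and 1.33. The uninjected MZdicer arrays had tdrd6a levels of 997 to 1074, beside a mean of 93.1 in uninjected wild type. Genotype and injection therefore enter the tdrd6a coefficients as well as stage, and these MZdicer changes follow in part from the selection. For nanos3 the coefficients were lower, at 0.976 for suz12a, 0.966 for cdca7b and 0.961 for sh3glb2b, and the MZdicer changes of these genes were 0.42, 0.60 and 0.61.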

How the data were processed

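Gene expression was measured with Affymetrix Zebrafish arrays in 6 groups taken from the labels. Per the labels' protocols, 2 µg of total RNA from 20 embryos was primed with oligo(dT), amplified and biotin labelled. The deposited intensities are linear, with 1 value per probe set and 44 to 285 values below 0 per array. The summary of probes, the background correction and the scaling are not given in the labels or headers used here. No detection call comes with the values. Intensities of all 15 arrays were quantile normalised together, negative values became 0, and the scale of analysis was log2(intensity + 16). Without its 115 controls the array has 15502 probe sets, all of them tested, dim ones included. A single symbol was annotated for 10795, several for 135 and none for 4572, and all 6 members matched the RefSeq gene table. A gene with several probe sets was represented by the one of highest mean.

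Tests used R 4.3.3 and limma 3.58.1 with a mean-variance trend, two-sided. Stage comparisons came from a fit of 15 arrays with 9 residual degrees of freedom, and genotype and injection comparisons from a fit of 12 arrays with 8. The array number limits the precision. The fit was tested on simulated data of the MZdicer and wild-type comparison (15502 probe sets). It found 48 of 67 simulated 1.5-fold changes, 64 of 67 at 2-fold and 65 of 66 at 4-fold, and made 11 false calls. With the single 50% epiboly array it found fewer, 21 of 67 simulated 1.5-fold changes against the 16-cell stage and 29 of 67 against 9 hours. Only a small part of the probe sets was changed in the simulation, and no batch was simulated. In the data 47.3% of all probe sets were called between MZdicer and wild type, so the simulated rates need not hold there. Scan day and fluidics batch come from the deposited array information, per the file headers. Replicate numbers were not used to pair the samples in the main fits. The members and lists were chosen with earlier results of these data known. Named are all members, up to 4 genes of the further list per comparison with the smallest p, and the 3 nearest profiles of each member. Also named, after their values were seen, are celf1, dnd1, igf2bp3 and tdrd15 in some comparisons where their probe sets disagree. The earlier differences of genes already named were added in the same way. Counts of the further list rest on the probe set of highest mean, and not every disagreement is given. For igf2bp3 of that list, injection in MZdicer gave 0.19 with this probe set (adjusted p = 0.383, limma) and 0.33 with the other (adjusted p = 0.0140, limma). The alternatives are given in the closing section.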

Additional observations from a re-analysis of the deposited data

Results flagged for a closer look

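The response to miR-430 injection differed between the genotypes for 3 of the 6 genes by limma's interaction term, where 22.6% of all probe sets were called. Uninjected wild type, alone in its fluidics batches, enters each of these values, and its mean tdrd6a level was already low at 93.1. MZdicer minus wild type was -1.38 on the log2 scale for nanos3 (adjusted p = 1.68e-05), with no overlap between injected and uninjected wild type and overlap in MZdicer. It was 0.80 for ddx4 (adjusted p = 0.00463) and -2.77 for tdrd6a (adjusted p = 9.83e-07). Over 22 alternatives the values ran from -1.46 to -1.25 for nanos3, from 0.65 to 0.89 for ddx4 and from -2.89 to -2.46 for tdrd6a, and all of them passed the threshold.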

How the results depend on the processing

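The 6 genes gave 1242 values over 26 alternatives, of which 1209 kept direction and side of the threshold, 6 lost a call, 12 gained one and 15 changed sign, none of the last where the reported change was called. On the intensities as deposited the members called numbered 1 for injection in MZdicer and 4 for injected MZdicer against wild type, beside 21.9% and 29.7% of all probe sets. Without the dimmest 40% of probe sets 2 were called for injection in wild type, beside 21.2% of the probe sets left. With only the arrays compared 1 was called for injection in MZdicer and 2 for injection in wild type, beside 20.0% and 14.2% of all probe sets. The added gene in wild type was ddx4 in both. Leaving out 1 array at a time gave 1 to 3 called for injection in MZdicer and 1 to 2 for injection in wild type. For injected MZdicer against wild type the leave-outs gave 2 to 4. The cause was not tested. Signs turned on the intensities as deposited for buc in MZdicer against wild type (0.035), nanos3 with injection in MZdicer (-0.041) and the tdrd7a interaction (-0.011). With the replicate number as a block tdrd7a between 50% epiboly and 9 hours was -0.011. The block changed no other direction and no count of members, and correlations of same-numbered deviations ran from -0.23 to 0.26 over 18 pairs. Over the leave-outs, nanos3 ran from -0.068 to 0.084 and tdrd7a from -0.071 to 0.076 with injection in MZdicer, buc from -0.10 to 0.028 and tdrd7a from -0.0096 to 0.12 in MZdicer against wild type, buc from -0.11 to 0.054 with injection in wild type, and tdrd7a from -0.022 to 0.13 in injected MZdicer against wild type. As deposited, the median log2 change of all probe sets moved from 0.08 to -0.15 for the 16-cell stage against 9 hours, from 0.11 to -0.12 against 50% epiboly and from -0.18 to 0.13 for MZdicer against the 16-cell stage. Over all probe sets, calls for injection in wild type numbered 2177, and 1338 without wild-type replicate 3. For MZdicer against the 16-cell stage they numbered 12109, and 7754 among the fewer probe sets left without the dimmest 40%. Normalising the 12 arrays past the stage series on their own was added after seeing the data. Other probe sets of a member were not run, as each gene has 1. A scan-day block could not be fitted for the 16-cell stage against 9 hours or MZdicer, or for 50% epiboly against 9 hours. The dimmest levels, such as buc and dazl past the 16-cell stage and grip2a and piwil1 at 9 hours, limit what changes can be seen there.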
